A study of Mus musculus with 6 samples.

Results

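The genes of the cytosolic translation initiation factors were followed in LPS-induced RAW264.7 cells with and without TPPU. Members were the rows of the expression table whose symbol starts with Eif and a digit, without the Eif2ak kinases and without pseudogenes, which gave 53 of 18019 genes. RAW264.7 is a mouse macrophage line, LPS is a bacterial product that drives macrophages into an inflammatory state, and TPPU is an inhibitor of soluble epoxide hydrolase, an enzyme that degrades the lipid mediators called epoxyeicosatrienoic acids. The control group holds 3 libraries of LPS-induced cells without TPPU and the TPPU group 3 libraries of LPS-induced cells given TPPU. The sources used here give no dose, no time and no uninduced cells, and they place all 6 libraries in 1 batch. Both groups carry the LPS induction and no library shows the level before it.

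Initiation factors bring the small ribosomal subunit, the initiator tRNA and an mRNA together at a start codon. The eIF2 complex carries the initiator tRNA and is recharged by the exchange factor eIF2B, eIF1 and eIF1A hold the scanning ribosome in the right shape, eIF3 is the large scaffold on the small subunit, and the eIF4 factors bind the cap and unwind the leader. eIF5 and eIF5B finish the joining of the subunits, eIF5A helps the ribosome through difficult stretches, and eIF6 keeps the subunits apart. In macrophages this machinery is a known point of control of cytokine output, through phosphorylation of eIF2 and through the eIF4E-binding proteins. An mRNA level says nothing on that phosphorylation.

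Levels are given in FPKM (fragments counted per gene, divided by gene length in kilobases and by library size), so they are per length and can be set side by side between genes. Estimated depth was 17.7 to 22.8 M (mega) fragments per library, and 3 fragments in a transcript of 1 kb, a floor for counting error alone, corresponded to 0.132 to 0.169 FPKM. Control replicate 3 stood apart, at 31.4 on the first principal component (52.8% of the variance) against -14 to 5.02 for the other libraries. The share of FPKM from the mitochondrial genome was 0.371% there, 0.914% for TPPU replicate 1 and 1.46% to 1.85% for the 4 remaining libraries. Of 8 macrophage markers all were above the filter, with a summed level of 1925 to 2296 FPKM in the controls and 2038 to 2151 under TPPU. Markers of fibroblasts, T cells, B cells and epithelial cells that had values were below the filter, with sums of 1.02 to 4.87 FPKM for the fibroblast genes and at most 0.712 for each of the other lists. Only 1 of the 4 T cell markers and 2 of the 3 B cell markers had values. The 3 hepatocyte markers were present and each higher on average under TPPU, with a summed level of 32.1 to 67.3 FPKM in the controls and 76.4 to 139 under TPPU. Alb led them, at 24.5, 38.1 and 59 in the controls and 66.4, 113 and 98.4 under TPPU. Their part in the results below was not tested. The sample notes of the TPPU libraries also cite a column name that refers to a LIS1 knockdown, and Pafah1b1, the gene of LIS1, measured 11.7, 14.2 and 6.52 FPKM in the controls and 10.7, 13.5 and 14.2 under TPPU. Ephx2, the gene of soluble epoxide hydrolase, was under the filter, at 0.447 to 0.865 in the controls and 0.42 to 2.56 under TPPU.

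Promoter windows are shown for members that carry a known translational or transcriptional motif near the start. RefSeq promoter windows of GRCm38.p6, from 250 bases before to 50 after the annotated start, were found for 40 of the 53 members. Only the first listed start of each gene was searched. Motifs at other starts, such as the further ones of Eif5a, were not looked for. A 5′ terminal oligopyrimidine tract (TOP), which puts an mRNA under the control of mTORC1, was taken as a C at the annotated start followed by at least 4 bases that are C or T. A tract that begins before or after the annotated start was not counted. By this rule the tract was found in 2 of 40 members (5%), Eif3f and Eif2s3x. The share was 2.49% over all 27025 genes with a window and 2.26% over the tested ones. The E-box CACGTG, the core bound by MYC and USF factors, reads the same on both strands. It lay in 8 of 40 windows (20%), against 7.24% of all genes and 10.8% of the 7703 tested genes with a window. Searched on both strands, TGATGNAAT, the composite element of C/EBP and ATF4, was in none of the 40. Its share was 0.969% over all genes and 0.389% over the tested genes. Below, each window runs 5′ to 3′ from 100 bases before to 20 from the start onwards, and capitals mark the pyrimidine tract or the E-box. Eif3f (chr7:108934315-108934434, plus strand) holds both motifs, and Eif2s3x (chrX:94212632-94212751, minus strand) the tract alone.
Eif3f: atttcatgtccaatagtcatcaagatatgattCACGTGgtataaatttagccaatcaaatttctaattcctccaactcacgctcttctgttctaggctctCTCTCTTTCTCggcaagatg
Eif2s3x: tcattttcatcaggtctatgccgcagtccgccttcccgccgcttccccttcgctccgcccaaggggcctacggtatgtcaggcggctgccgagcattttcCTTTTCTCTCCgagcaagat
The E-box windows of Eif3k (chr7:28981869-28981988, minus strand) and Eif4g1 (chr16:20672627-20672746, plus strand) are shown with those of Eif3m (chr2:105017008-105017127, minus strand) and Eif4b (chr15:102073673-102073792, plus strand). Eif3m and Eif4b had separated groups and none of these motifs as defined here. Whether their transcripts start with a tract at another base was not tested.
Eif3k: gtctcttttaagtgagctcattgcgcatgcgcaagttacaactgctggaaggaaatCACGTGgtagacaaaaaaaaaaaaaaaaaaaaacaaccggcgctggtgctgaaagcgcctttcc
Eif4g1: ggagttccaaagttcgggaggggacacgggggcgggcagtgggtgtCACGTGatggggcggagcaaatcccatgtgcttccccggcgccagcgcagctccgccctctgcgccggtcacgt
Eif3m: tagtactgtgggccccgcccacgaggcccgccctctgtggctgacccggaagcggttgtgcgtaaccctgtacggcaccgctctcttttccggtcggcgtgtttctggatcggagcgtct
Eif4b: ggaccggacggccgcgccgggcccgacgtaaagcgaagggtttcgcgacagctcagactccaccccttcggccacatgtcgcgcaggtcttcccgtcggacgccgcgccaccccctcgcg

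No initiation factor gene passed the test between TPPU and control. Of the 53 members 49 were above the filter of at least 1 FPKM in at least 3 libraries. With limma 0 of 49 were higher and 0 were lower at a Benjamini-Hochberg adjusted p under 0.05, as for all 9728 genes tested (0% in each direction). The smallest adjusted p of a member was 0.603. At an unadjusted p under 0.05, 2 members were higher and 0 were lower, 4.08% and 0% of them, where the shares over all genes tested were 4.19% and 3.7%. The 2 were Eif3m and Eif3j2, and the level of Eif3j2 is uncertain for a reason given below. These p-values measure the spread between libraries, which may be technical, since the labels do not say that the libraries came from separate cultures.

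As a group the members sat slightly above the control level. The median log2 change, TPPU minus control on the log2(FPKM + 1) scale, was 0.07 over 49 members with a range of -0.29 to 0.42, beside 0.02 over all genes tested. Positive changes were seen in 34 of the 49 (69.4%, against 54.4% of all genes). Without control replicate 3 the median was 0.04 and 31 of 49 were positive (63.3%, against 53.8%). All 3 TPPU values lay above all 3 control values in 6 members (12.2%, against 7.48% of all genes) and below them in 1 (2.04%, against 7.88%). Summed over all 53 members the level was 2878, 2905 and 2684 FPKM in the controls and 2994, 3012 and 3073 under TPPU. The summed TPPU levels were all above the control levels. The same was true over all genes tested, at 297139, 296697 and 298736 in the controls and 302572, 300082 and 301061 under TPPU. As a share of the FPKM of a library the members held 0.895% to 0.975% in the controls and 0.986% to 1.02% under TPPU.

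**Figure D1:**
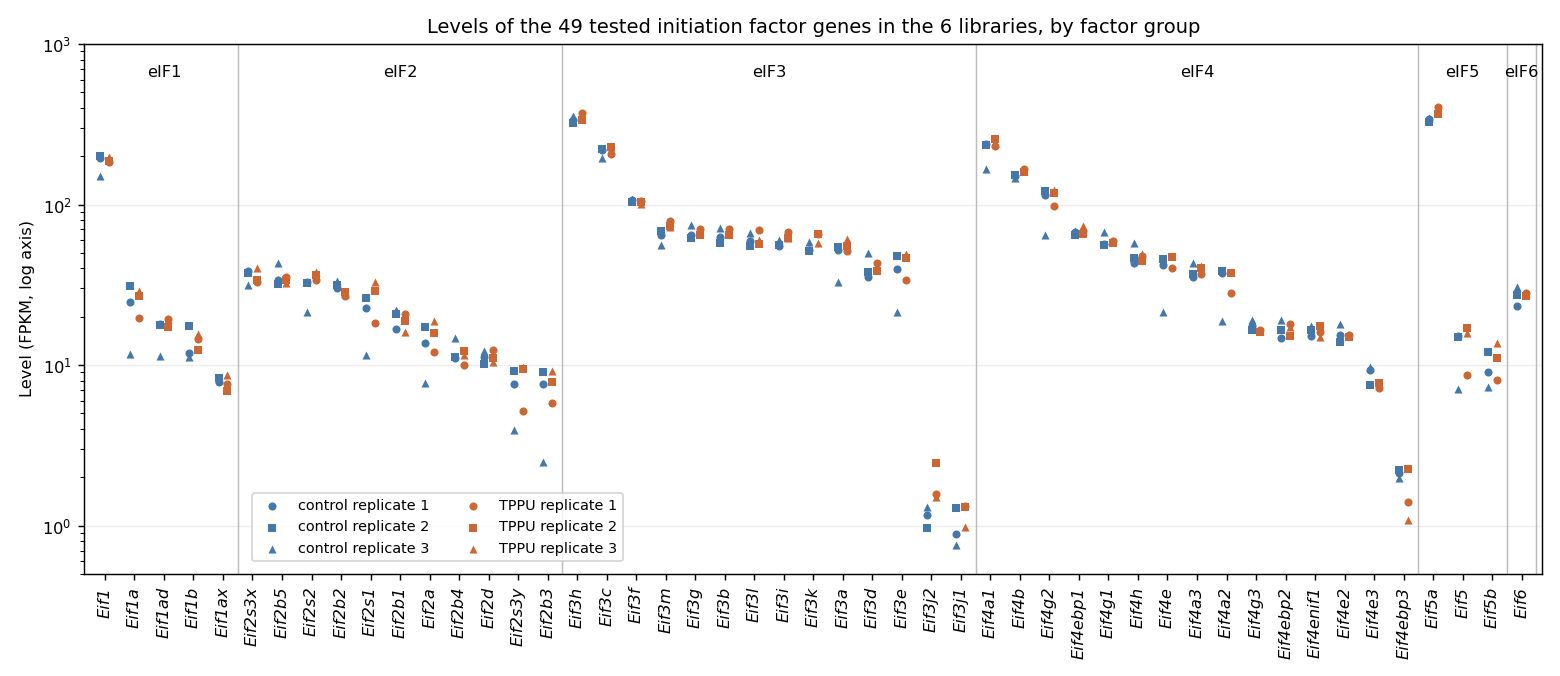
Level (FPKM, log axis) of each of the 49 tested members in each library, with blue for control, orange for TPPU and a circle, square and triangle for replicates 1, 2 and 3, ordered by mean within factor group. Levels run from about 1 FPKM for Eif3j1 and Eif3j2 to 403 for Eif5a in TPPU replicate 1, and the blue triangle of control replicate 3 lies far below the other points in genes such as Eif2b3 and Eif4e.

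The deviations of the libraries varied with the GC content of the members. Control replicate 3 had the lowest of the 6 values in 22 of the 49 members (44.9%, against 27.7% of all genes) and the highest in 16 (32.7%, against 34.8%). Among the 24 members with transcript GC under the member median of 49.8% it was lowest in 18 and highest in 3, and among the other 25 it was lowest in 4 and highest in 13. Across the 49 members transcript GC and the deviation of control replicate 3 from the gene mean gave a Spearman rho of 0.72. The rho was 0.36 for TPPU replicate 1 and between -0.53 and -0.57 in the other 4 libraries, a description over genes that share a library. Over 9522 genes the rho was 0.61 for control replicate 3, 0.26 for TPPU replicate 1 and -0.19 to -0.46 in those 4. The log2 change itself had a rho of -0.56 with GC over the 49 members and -0.28 over 9522 genes. Without control replicate 3 these were 0.36 and 0.16, with the opposite sign. With all 6 libraries and the GC trend removed they were -0.37 and -0.03. The members under the median GC had a median change of 0.21 with all libraries and 0 without control replicate 3, and those at or above it 0.02 and 0.08. The part of GC content in any single change was not tested.

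**Figure D2:**
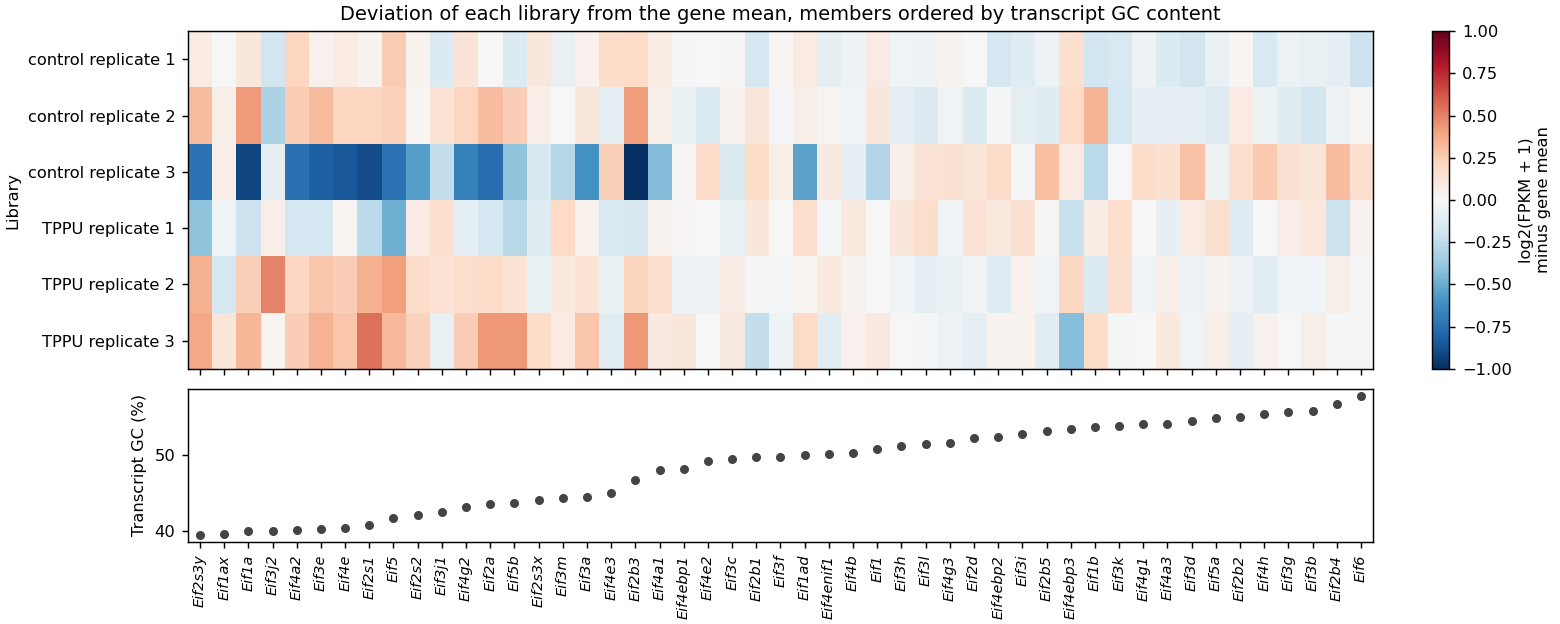
Deviation of each library from the gene mean (log2(FPKM + 1), colour from -1 to 1) for the 49 tested members ordered by transcript GC content, which is plotted in percent below. Control replicate 3 is blue across most of the GC-poor members at the left and pale red at the right, and TPPU replicate 1 shows a weaker form of the same gradient.

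Among the eIF1 genes, which set the scanning ribosome, the groups overlapped in all 5. The median change was 0.08 with 4 of 5 positive, and -0.06 with 1 of 5 positive without control replicate 3. It was 0.27 without control replicate 2, 0.17 without TPPU replicate 2 and 0.03 without TPPU replicate 3. Eif1, the start codon gatekeeper, was the most abundant, at 196, 201 and 151 FPKM in the controls and 185, 186 and 199 under TPPU. Its control replicate 3 was the lowest library, and the log2 change of 0.07 (SE 0.12, limma adjusted p = 0.887) was -0.06 without it. The smallest unadjusted p of the group belonged to Eif1ad, a gene related to eIF1A, at 18, 17.7 and 11.4 in the controls and 19.3, 17.3 and 19.5 under TPPU. The control replicate 3 value alone lay below the TPPU range, and the change of 0.27 (SE 0.17, limma adjusted p = 0.705) was 0.06 without it. The eIF1A protein has 2 genes here, and Eif1a measured 24.8, 31.1 and 11.7 in the controls and 19.7, 27.1 and 29.1 under TPPU. Eif1ax, the X-linked copy, stood at 7.88, 8.27 and 8.23 in the controls and 7.65, 6.87 and 8.69 under TPPU. Their longest coding transcripts match at 84.4% over 461 aligned bases, and the ratio of Eif1a to Eif1ax ran from 1.42 in control replicate 3 to 3.94 in TPPU replicate 2. Eif1b, the paralogue of Eif1, read 11.9, 17.6 and 11.2 in the controls and 14.5, 12.4 and 15.7 under TPPU.

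Among the eIF2 complex genes, which deliver the initiator tRNA, 3 of 4 had positive changes (75%, against 54.4% of all genes). All TPPU values lay above all controls in 1 of these genes (25%, against 7.48%) and below in 0 (against 7.88%). Their median of 0.28 was 0 without control replicate 3, which was the lowest library in all 4. Eif2s2, the beta subunit gene on chromosome 2 (154871410 to 154892935, mm10), measured 32.9, 32.4 and 21.5 in the controls and 34, 36.6 and 37.8 under TPPU. All TPPU values were above all controls, and the change of 0.33 (SE 0.16, limma adjusted p = 0.63) was 0.14 without control replicate 3, the lowest library. Eif2s1, the alpha subunit that the stress kinases phosphorylate, measured 22.8, 26 and 11.6 in the controls and 18.3, 28.8 and 33.1 under TPPU. Its change of 0.42 (SE 0.3) came with overlapping groups and was 0.09 without control replicate 3. The gamma subunit has an X-linked and a Y-linked gene, 86.4% identical over 1426 bases. Eif2s3x measured 38.5, 37.2 and 31.7 in the controls and 32.7, 33.8 and 40.5 under TPPU, and Eif2s3y 7.68, 9.22 and 3.93 and then 5.2, 9.51 and 9.72. The X copy was the higher in every library, by 3.56 to 8.08 times, with the largest ratio in control replicate 3.

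Of the eIF2B genes, which encode the exchange factor, 4 of 5 had negative changes, with a median of -0.09 (20% positive, against 54.4% of all genes). Without control replicate 3 it was 3 of 5 and -0.02 (40% positive, against 53.8%). That library was the highest in 4 of the 5 (80%, against 34.8%). All TPPU values lay below all controls in 1 (20%, against 7.88%) and above in 0 (against 7.48%). Eif2b2, the beta subunit gene on chromosome 12 (85219481 to 85226628), was the single member with all TPPU values below all controls. It measured 30, 31.4 and 33.3 in the controls and 26.9, 28.4 and 27.9 under TPPU. The change was -0.18 (SE 0.09, limma adjusted p = 0.638), -0.14 without control replicate 3 and -0.11 with sample quality weights, so the order of the groups did not rest on that library. Eif2b5, the catalytic epsilon subunit, measured 33.7, 32.1 and 43.4 in the controls and 35.3, 34.1 and 32.4 under TPPU, with its highest value in control replicate 3. Eif2b3, the gamma subunit, had the deepest dip of that library, at 7.68, 9.12 and 2.48 in the controls and 5.79, 7.85 and 9.23 under TPPU. Control replicate 3 stood at 0.295 of the mean of the other controls there, and the change of 0.34 (SE 0.37) turned to -0.14 without it. Eif2b1 and Eif2b4, of the alpha and delta subunits, changed by -0.09 and -0.12, or by -0.02 and 0.01 without that library. Of the other genes numbered with eIF2, Eif2a and Eif2d, alternative carriers of initiator or other tRNA, measured 7.71 to 17.3 and 10.1 to 12.3 in the controls and 12.1 to 18.9 and 10.5 to 12.5 under TPPU.

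Of the eIF3 genes 12 of 14 had positive changes (85.7%, against 54.4% of all genes), with a median of 0.12. All TPPU values lay above all controls in 3 of them (21.4%, against 7.48% of all genes) and below in 0 (against 7.88%). Summed over the 14 subunit genes the level was 1145, 1139 and 1153 FPKM in the controls and 1236, 1200 and 1213 under TPPU, with means of 1146 ± 7.03 and 1216 ± 17.9 (SD, n = 3). Every TPPU sum exceeded every control sum, as was also the case over all genes tested. Control replicate 3 did not stand apart in the eIF3 sum. Gene by gene, that library was the lowest in 5 of the 14 (35.7%, against 27.7% of all genes). It was the highest in 4 (28.6%, against 34.8%), so deviations in both directions enter the sum. Without control replicate 3 the median was 0.11 and 12 of 14 changes were positive. All TPPU values then lay above both remaining controls in 8 of the 14, beside 13 of all 49 members (26.5%) and 17% of all genes.

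Eif3m, a small subunit gene on chromosome 2 (104999656 to 105017080), had the smallest p of any member. It measured 64.9, 68.2 and 56 in the controls and 78.6, 73.3 and 72.4 under TPPU. The change was 0.25 (SE 0.1, limma unadjusted p = 0.0367, adjusted p = 0.603), or 0.17 without control replicate 3. Eif3i, which encodes a WD-repeat subunit and lies on chromosome 4 (129591960 to 129600648), measured 55.2, 56.2 and 59.8 in the controls and 67.1, 62.1 and 61.7 under TPPU. Its change was 0.16 (SE 0.09, limma adjusted p = 0.664) and 0.19 without control replicate 3, here the highest control, but 0.09 with the transcript length trend removed. Eif3k, a small subunit gene whose window above holds the E-box, measured 52.1, 51.3 and 58.3 in the controls and 65.2, 65.3 and 57.6 under TPPU. The groups overlapped by TPPU replicate 3 alone, and the change of 0.21 (SE 0.1, limma adjusted p = 0.627) was 0.27 without control replicate 3 and 0.13 with the length trend removed. Eif3j2 measured 1.16, 0.971 and 1.3 in the controls and 1.57, 2.47 and 1.5 under TPPU, a change of 0.4 (SE 0.17, limma adjusted p = 0.627). The change was 0.25 without TPPU replicate 2 and 0.62 with a pseudocount of 0.1. Its transcript matches that of Eif3j1 at 99.4% over 2379 bases, its whole length, so how the authors' counting split their reads is uncertain and both values are too. Eif3j2 is nevertheless 1 of the 2 members with a limma unadjusted p under 0.05. It is also counted in the 6 members and the 3 eIF3 genes with all TPPU values above all controls. Eif3j1 measured 0.892, 1.28 and 0.763 in the controls and 1.32, 1.3 and 0.978 under TPPU, with overlapping groups.

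The subunits of the eIF3 scaffold are thought to sit in equal numbers in the complex, and their mRNA levels spread widely. Eif3h was the highest, at 334, 322 and 356 FPKM in the controls and 372, 337 and 343 under TPPU. Eif3c followed at 195 to 221 and 206 to 229, and Eif3f, with the pyrimidine tract shown above, at 103 to 109 and 101 to 105. Both had overlapping groups and changes of 0.06 and -0.03. Eif3a, Eif3b, Eif3d, Eif3e, Eif3g and Eif3l lay between 21.4 and 74.8 in all libraries. Eif3e, at 39.7, 48.1 and 21.4 in the controls and 34, 46.7 and 49.3 under TPPU, was the subunit with the lowest GC content after the Eif3j2 copy. The ratio of Eif3h to Eif3e was 16.6 for control replicate 3, 11 for TPPU replicate 1 and 6.7 to 8.42 for the other 4 libraries. The scaffold genes Eif3a and Eif3e changed by 0.3 each, or by 0.07 and -0.03 without control replicate 3, and Eif3b by 0.09 or 0.17.

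**Figure D3:**
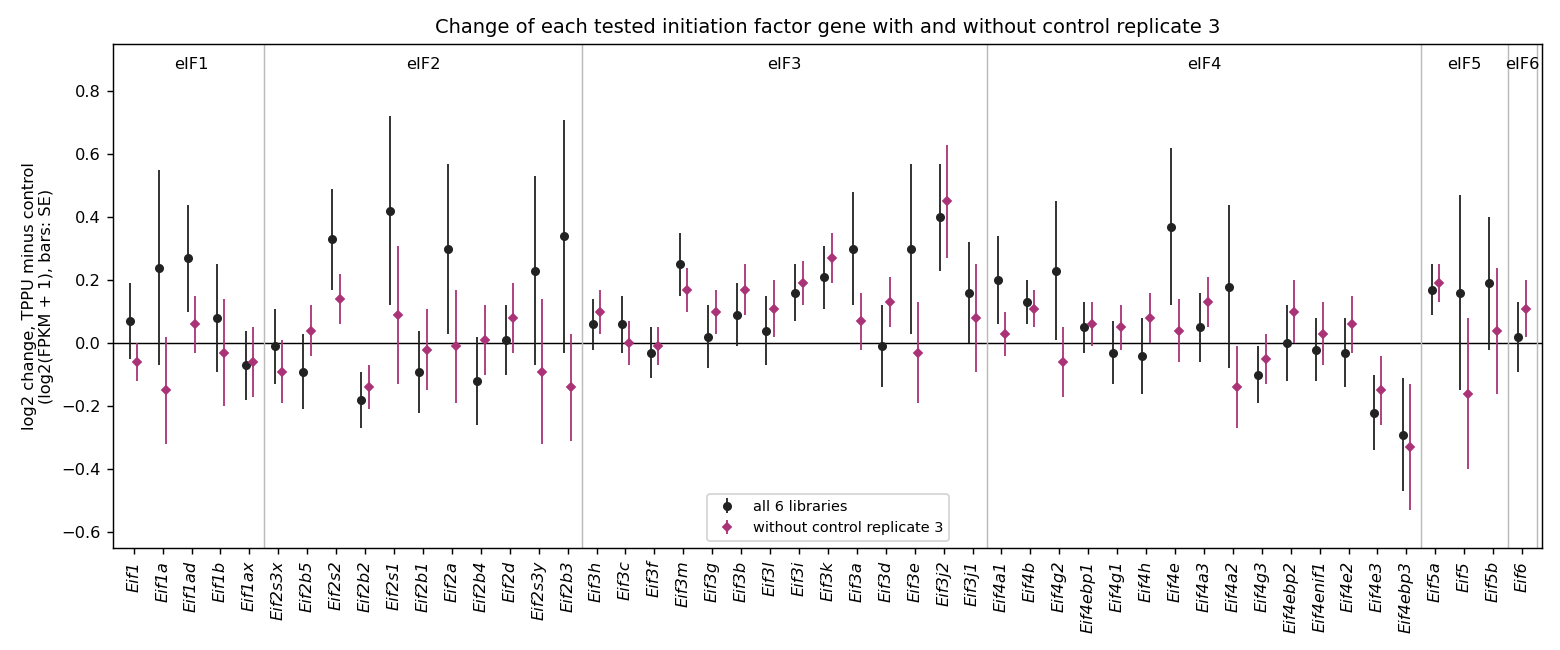
Log2 change (TPPU minus control, log2(FPKM + 1), bars are SE) of each tested member with all 6 libraries in black and without control replicate 3 in purple. The changes of Eif2b3, Eif2s1, Eif3e and Eif4e shrink to within 0.14 of 0 without that library, and those of Eif3i, Eif3m, Eif4b and Eif5a are then between 0.11 and 0.19.

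The eIF4 genes showed no common direction, with 8 of 15 tested changes positive and a median of 0. Eif4e, the cap-binding protein and the factor held by the 4E-BPs, measured 41.9, 46.1 and 21.5 in the controls and 40.4, 47.2 and 48.1 under TPPU. Control replicate 3 was lower than every other library by a wide margin, and the change of 0.37 (SE 0.25, limma adjusted p = 0.718) was 0.04 (SE 0.1) without it. Eif4e2, which binds the cap and represses translation, measured 15.5, 14 and 17.9 in the controls and 15.5, 14.9 and 15.5 under TPPU. Eif4e3, a further cap-binding relative, had the smallest unadjusted p of the group, at 9.37, 7.54 and 9.76 in the controls and 7.23, 7.72 and 7.45 under TPPU. Its groups overlapped at control replicate 2, and the change was -0.22 (SE 0.12, limma adjusted p = 0.664). Over the 6 libraries the genes outside the members whose log2 levels were most like those of Eif4e were Rps3a1, Exoc6b and Cpsf6 (Pearson r of 0.998 or above, a description in which all share the low control replicate 3). Eif4e made up 62.8% to 68.2% of the summed level of Eif4e, Eif4e2 and Eif4e3 in 5 libraries and 43.8% in control replicate 3.

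The 4E-BP genes, which encode the mTORC1-regulated inhibitors of eIF4E, did not separate. Eif4ebp1 measured 67.6, 64.7 and 68.5 in the controls and 68.6, 65.7 and 73.5 under TPPU, a change of 0.05 with a 95% interval of -0.15 to 0.24. Eif4ebp2 measured 14.7, 16.6 and 19.2 in the controls and 18, 15.2 and 17.2 under TPPU, with an interval of -0.28 to 0.28. Eif4ebp3, the rarest of the 3, measured 2.13, 2.21 and 1.97 in the controls and 1.4, 2.24 and 1.08 under TPPU. TPPU replicate 2 overlapped the controls, and the change was -0.29 (SE 0.18, limma adjusted p = 0.694). It was -0.47 without TPPU replicate 2, -0.15 without TPPU replicate 3 and -0.45 with a pseudocount of 0.1. The Eif4ebp1 share of the 3 inhibitor genes stayed at 76.4% to 80.1% in all libraries.

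Among the helicase genes Eif4a1 made up 72.9% to 78% of the summed level of Eif4a1, Eif4a2 and Eif4a3. Eif4a1, the main eIF4F helicase, measured 238, 236 and 167 in the controls and 231, 256 and 240 under TPPU, and its change of 0.2 (SE 0.14) was 0.03 without control replicate 3. Eif4a2 measured 37.4, 38.5 and 18.7 in the controls and 28.2, 37.2 and 38.1 under TPPU, low in the same library. Eif4a3, the helicase of the exon junction complex, measured 35.3, 36.8 and 43.3 in the controls and 36.8, 40.5 and 41.7 under TPPU. Eif4b, which stimulates the helicase and lies on chromosome 15 (102073773 to 102097173), was the eIF4 gene with separated groups. It was 1 of 15 tested (6.67% with all TPPU values above, against 7.48% of all genes). It measured 150, 152 and 146 in the controls and 167, 160 and 161 under TPPU, a change of 0.13 (SE 0.07, limma adjusted p = 0.69), which was 0.11 without control replicate 3. Its relative Eif4h overlapped, at 43.1 to 57.7 and 44.6 to 49.5.

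The scaffold genes that bridge cap and ribosome differed in how the libraries scattered. Eif4g1, the main scaffold, measured 57.1, 55.7 and 67.1 in the controls and 59.1, 57.2 and 59.1 under TPPU. Eif4g2, which encodes the cap-independent relative DAP5, measured 114, 121 and 65 in the controls and 97.9, 118 and 124 under TPPU. The ratio of Eif4g2 to Eif4g1 was 0.969 in control replicate 3, 1.66 in TPPU replicate 1 and 1.99 to 2.18 in the other 4. Eif4g3 measured 17.4, 16.6 and 19 in the controls and 16.6, 16.1 and 16.4 under TPPU, a change of -0.1 (SE 0.09). Eif4enif1, which encodes the eIF4E transporter, stood at 15.1 to 17.4 and 15 to 17.5.

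Among the eIF5 genes Eif5a, whose protein carries the hypusine residue, had the highest mean of all 53 members, with Eif3h above it in control replicate 3. The 3 tested changes were positive with a median of 0.17, or 0.04 with 2 positive without control replicate 3. It was 0.32 without control replicate 2, 0.38 without TPPU replicate 1 and 0.04 without TPPU replicate 3. Eif5a, on chromosome 11 (69916714 to 69921958), measured 342, 328 and 348 FPKM in the controls and 403, 368 and 374 under TPPU. All TPPU values were above all controls, and the change was 0.17 (SE 0.08, limma adjusted p = 0.627), or 0.19 without control replicate 3. Eif5, the GTPase activator of eIF2, measured 15.1, 14.9 and 7.12 in the controls and 8.66, 17 and 15.9 under TPPU. The lowest values belonged to control replicate 3 and TPPU replicate 1, which also had the smallest share from the mitochondrial genome. The ratio of Eif5a to Eif5 was 48.8 and 46.5 in those and 21.7 to 23.5 in the other 4. Eif5b, which joins the subunits, measured 9.01, 12 and 7.32 in the controls and 8.07, 11.1 and 13.8 under TPPU. Eif6, which has the highest transcript GC content of the members (57.9%), measured 23.5, 27.5 and 30.8 in the controls and 28.2, 26.9 and 27.6 under TPPU (change 0.02, SE 0.11, limma adjusted p = 0.961).

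**Figure D4:**
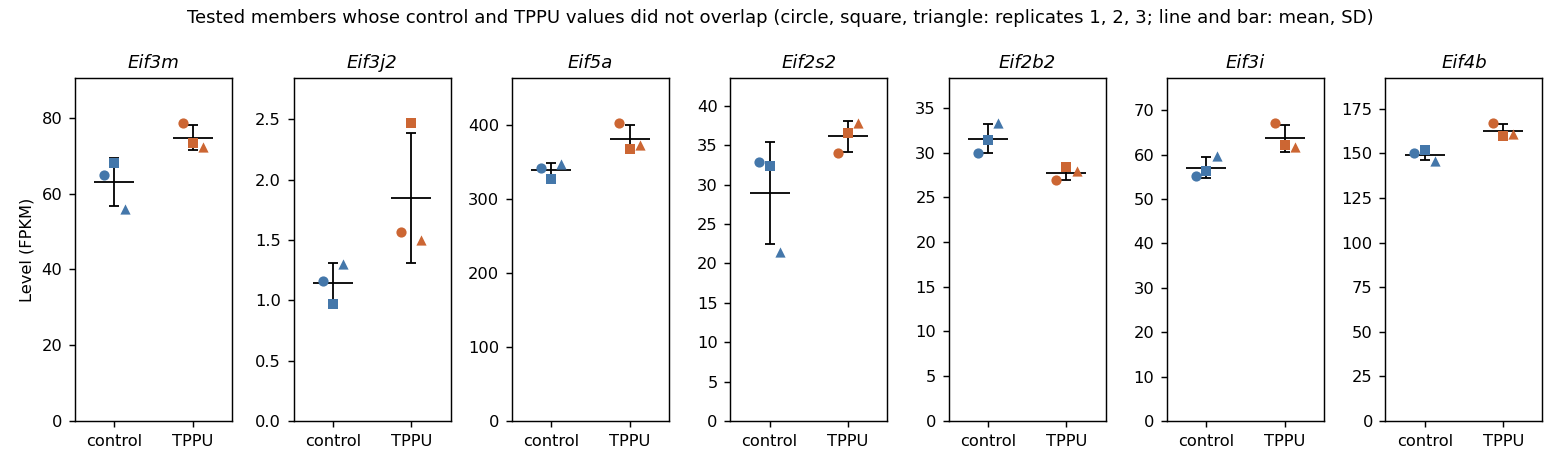
Level (FPKM, axis from 0) of the 7 tested members whose groups did not overlap, with blue for control, orange for TPPU, symbols for the replicates and black lines and bars for mean and SD (n = 3). Eif3m, Eif3j2, Eif5a, Eif2s2, Eif3i and Eif4b are higher under TPPU and Eif2b2 lower, and none passes the adjusted threshold.

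The 4 members below the filter were at or near 0. Eif5a2, the tissue-restricted form of Eif5a, was listed at 0 to 0.0353, Eif4e1b, an oocyte form in mouse, at 0 to 0.0394 and Eif4a3l1 at 0 to 0.0282. Eif4a3l2 reached 0.202 in TPPU replicate 1 and was at 0 to 0.0644 in the others. A two-sided exact permutation test gave p = 0.5 to 1 for these, where 3 against 3 libraries cannot go below 0.1.

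Among the other genes of translation, 60 in 7 lists, no gene passed over all genes either. Of the 56 tested, 33 changes were positive (58.9%, against 54.4% of all genes) and 23 negative, with a median of 0.04. At a limma unadjusted p under 0.05 there were 2 higher and 2 lower (3.57% each, against 4.19% and 3.7% of all genes, so near the background). All TPPU values lay above all controls in 5 and below them in 5 (8.93% each, against 7.48% and 7.88%), also near the background. Among the enzymes acting on eIF2, Ppp1r15a, which encodes the stress-induced phosphatase subunit GADD34, measured 55.7, 56.8 and 60.9 in the controls and 41.7, 44 and 47.7 under TPPU. All TPPU values were below all controls, with a change of -0.37 (SE 0.09, limma adjusted p = 0.397), or -0.33 without control replicate 3. Eif2ak3, the gene of the kinase PERK, measured 4.21, 4.41 and 6.33 in the controls and 3.54, 3.47 and 3.68 under TPPU. Its change was -0.37 (SE 0.15, limma adjusted p = 0.6), or -0.22 without control replicate 3. Eif2ak1, of the heme-regulated kinase, measured 9.95 to 11.8 and 8.94 to 9.99. The median of the 8 genes of that list was -0.05, or -0.16 without control replicate 3.

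Elongation factor genes had 6 of 7 positive changes (85.7%, against 54.4% of all genes) and a median of 0.15, or 0.11 without control replicate 3. All TPPU values lay above all controls in 2 of the 7. Eef1g, of the exchange complex of the factor eEF1A, measured 462, 459 and 471 in the controls and 580, 539 and 530 under TPPU. This separated pattern gave a change of 0.24 (SE 0.07, limma adjusted p = 0.514), or 0.25 without control replicate 3. Eef1b2 of the same complex measured 257, 259 and 159 in the controls and 263, 286 and 296 under TPPU, and its change of 0.36 was 0.12 without that library. Eef1e1, a scaffold gene of the tRNA synthetase complex, measured 12.5, 11.8 and 5.93 in the controls and 12.2, 12.5 and 15.2 under TPPU, with the lowest value again in control replicate 3.

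Genes of termination, recycling and rescue had 6 of 6 positive changes (100%, against 54.4% of all genes). Control replicate 3 was the lowest library in all 6 (against 27.7% of all genes). Their median of 0.2 was 0 without that library, with 3 of 6 positive. Mcts1, a partner in re-initiation, measured 9.43, 8.11 and 6.7 in the controls and 9.72, 12 and 11.5 under TPPU, with a change of 0.42 (SE 0.14, limma adjusted p = 0.562), or 0.3 without control replicate 3. Its partner Denr measured 16.5 to 25.4 and 22.9 to 30.8, and Abce1, the recycling ATPase, 6.32 to 31.4 and 12.8 to 36.3.

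The list of poly(A)-binding proteins and cap regulators had 10 negative and 7 positive changes (41.2% positive, against 54.4% of all genes). Their median was -0.03, or -0.08 without control replicate 3. Mknk2, a kinase of eIF4E, measured 67.7, 64.5 and 80.9 in the controls and 63.6, 58.6 and 56.2 under TPPU, a separated pattern with a change of -0.25 (SE 0.11, limma adjusted p = 0.627), or -0.15 without control replicate 3. Its relative Mknk1 changed by 0.19 (SE 0.1) at 28.1 to 33.1 and 31.9 to 37.5. Larp4b, of a poly(A)-linked RNA-binding protein, measured 23.2 to 25.2 in the controls and 20.7 to 21.8 under TPPU. For 10 genes of mTORC1 signalling the median was 0, or 0.06 without control replicate 3, with Rps6 at 752 to 956 and 971 to 1019, Rheb at 6.43 to 6.94 and 6.77 to 8.41, and Tsc1 at 6.44 to 7.54 and 5.7 to 6.74. The hypusine enzyme genes Dhps and Dohh, which modify the Eif5a product, measured 12.5 to 17.2 and 2.63 to 3.64 in the controls and 13.7 to 15.9 and 3.23 to 4.08 under TPPU. For 6 mitochondrial translation factors the median was 0.03, and Gfm1, an elongation factor, measured 16.8 to 22.3 and 22.5 to 23.5, Gfm2 7.16 to 8.03 and 7.41 to 8.1, and Tsfm 6.23 to 9.09 and 6.86 to 7.28.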

How the data were processed

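The authors deposited FPKM values for 18019 gene symbols in 6 poly(A) RNA libraries, a unit read from the file name and the numbers themselves. Per the submitters' processing notes the reads were placed on mm10, and the sources used here name no aligner, counter or annotation. Depth was estimated from single-fragment steps of low values in genes with 1 transcript, of which 95% to 96.4% came out whole within 0.1. The 9728 genes that reached 1 FPKM in 3 or more libraries were tested as log2(FPKM + 1) by limma (version 3.58.1 in R 4.3.3), allowing the variance to follow the mean, with group as the sole term, two-sided tests and Benjamini-Hochberg adjustment at 0.05. The scripts were tested on simulated data. GC content and positions (1-based) came from GENCODE M21, and paralogues were aligned with blastn 2.17.0. Python 3.11.15, pandas 2.3.3, scipy 1.17.1 and matplotlib 3.10.9 were used. Values in every library are given for the member of each factor group with the smallest p, members with separated groups, the paralogue sets and the 3 members with the highest mean, and for up to 3 genes of each further list. Members and lists were chosen with earlier results of these data known. The alternatives changed the pseudocount, filter, scaling, variance model, library weights, block, GC and length trends, and the libraries.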

Additional observations from a re-analysis of the deposited data

How the results depend on the processing

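Under every alternative run 0 initiation factor genes passed an adjusted p of 0.05 in either direction. Over all 9728 genes limma called 0 higher and 0 lower, except with sample quality weights (89 higher, 80 lower) and without TPPU replicate 1 (5 and 1), so leaving out single libraries gave 0 to 5 and 0 to 1. The members' median of 0.07 was 0.03 with the transcript length trend removed and 0.04 to 0.09 with single libraries left out. The value was 0.04 both without control replicate 3 and without TPPU replicate 3. With single libraries left out the group median ran from -0.06 to 0.27 for eIF1, -0.01 to 0.06 for eIF2, 0.11 to 0.13 for eIF3, -0.04 to 0.04 for eIF4, 0.04 to 0.38 for eIF5 and -0.07 to 0.11 for eIF6. The eIF3 median of 0.12 was 0.08 over the 12 members with a mean of at least 5 FPKM. It was 0.09 with the length trend removed and 0.13 with sample quality weights. The smallest adjusted p of a member ran from 0.082 with sample quality weights to 0.989 without TPPU replicate 3. The change of a member near 1 FPKM can depend on the pseudocount, as for Eif3j2 (0.4, or 0.62 with a pseudocount of 0.1). The split of reads between Eif3j1 and Eif3j2 is also uncertain.

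The sign turned in 17 of the 49 members without control replicate 3, in 4 or 5 without any other single library and in at most 9 under the other alternatives, and the cause was not tested. With sample quality weights the log2 change was -0.04 for Eif1, 0.05 for Eif2b1, 0.05 for Eif2b4, 0.00 for Eif2b5, 0.12 for Eif3d, -0.04 for Eif4a2, 0.09 for Eif4enif1, 0.02 for Eif4g1, 0.08 for Eif4h and 0.10 for Tsfm. With the length trend removed it was 0.00 for Eif2s3x, -0.05 for Eif3g, -0.00 for Eif3h, -0.02 for Eif6 and -0.05 for Dhps. Quantile normalization gave -0.01 for Eif2d, -0.02 for Eif4ebp2 and -0.01 for Dhps, and median-of-ratios scaling -0.00 for Eif4ebp2. Removing the GC trend gave 0.02 for Eif3d, with or without the replicate block.

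With single libraries left out the log2 change ran from -0.23 to 0.85 for Abce1, -0.11 to 0.11 for Dhps, -0.06 to 0.14 for Eif1, -0.15 to 0.52 for Eif1a, -0.14 to 0.01 for Eif1ax, -0.03 to 0.27 for Eif1b, -0.01 to 0.53 for Eif2a, -0.20 to 0.00 for Eif2b1, -0.14 to 0.63 for Eif2b3 and -0.19 to 0.01 for Eif2b4. It ran from -0.17 to 0.04 for Eif2b5, -0.05 to 0.08 for Eif2d, -0.10 to 0.05 for Eif2s3x, -0.09 to 0.48 for Eif2s3y, -0.11 to 0.13 for Eif3d, -0.03 to 0.54 for Eif3e, -0.04 to 0.10 for Eif3g, -0.04 to 0.11 for Eif3l, -0.14 to 0.36 for Eif4a2 and -0.01 to 0.13 for Eif4a3. The range was -0.11 to 0.06 for Eif4e2, -0.09 to 0.10 for Eif4ebp2, -0.07 to 0.04 for Eif4enif1, -0.08 to 0.05 for Eif4g1, -0.06 to 0.39 for Eif4g2, -0.12 to 0.08 for Eif4h, -0.16 to 0.45 for Eif5, -0.07 to 0.11 for Eif6 and -0.17 to 0.07 for Tsfm.

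The labels give both groups replicate numbers 1 to 3 and place all 6 libraries in 1 batch. Deviations of same-numbered libraries correlated at -0.301, 0.154 and -0.399, and 0 of 6 libraries correlated best with its own number, so the numbers were not used as pairs. With the replicate block the members' median was 0.07 and 0 members passed in either direction, with a smallest adjusted p of 0.898.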
